A study of Mus musculus with 10 samples.

Results

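The oncofetal genes described here are the high mobility group genes Hmga1 and Hmga2, the RNA-binding protein genes Lin28a and Lin28b, and Igf2bp1, Igf2bp2 and Igf2bp3, which encode the insulin-like growth factor 2 mRNA-binding proteins. Members were the array's probe sets, sets of short probes read as 1 value, that the platform annotation pairs with exactly 1 of these 7 symbols. That gave 17 probe sets of 45101 on the array, for 5 genes: 4 for Hmga2, 2 for Lin28a, 1 for Lin28b, 4 for Igf2bp1 and 6 for Igf2bp3. Hmga1 and Igf2bp2 had no probe set by this rule and were not analysed here. The annotation used leaves 9211 probe sets of the array unlisted, and the rule drops 932 that carry several symbols. The absence of Hmga1 and Igf2bp2 therefore does not show that the array lacks probes for them. Each gene's main probe set was chosen by its mean level over all 10 arrays, the highest, so these means are given only as a description, and the genes themselves were picked with earlier results of these data known.

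BMEL cells are an epithelial line derived from embryonic mouse liver, able to form either hepatocyte-like or bile duct-like cells. All cells were transfected with a locked nucleic acid (LNA) oligonucleotide by means of Oligofectamine. In 5 samples the oligonucleotide was antisense to the microRNA miR-30a, and in the 5 controls it was scrambled. Total RNA, 100 ng a sample, was amplified and biotin-labelled, and each sample was read on 1 single-colour array. The labels give no untransfected group and do not state whether replicates came from separate cultures. The p-values therefore reflect the spread among these samples alone, and that spread may be technical. The question here is whether the oncofetal transcripts change in level once miR-30a is blocked.

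Oncofetal genes are expressed in the embryo and in many tumours and are low in most adult tissues. HMGA proteins are small chromatin proteins that bind AT-rich DNA and bend it, and Hmga2 is active in proliferating embryonic cells. LIN28 proteins bind the precursors of let-7 microRNAs and block their maturation, and let-7 in turn represses Hmga2, the Lin28 genes and Igf2bp genes through sites in their messages. IGF2BP proteins bind mRNAs in the cytoplasm and affect their stability, transport and translation. In fetal liver this group of genes is known for its activity in proliferating hepatoblasts, the shared precursors of hepatocytes and bile duct cells.

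The microRNAs at issue are shown because the treatment and the known regulation of the members meet there: miR-30a is the target of the oligonucleotide, and let-7 is the microRNA that LIN28 holds back. The sequences are from RefSeq (build GRCm38.p6), 5′ to 3′, with the seed, bases 2 to 8, in capitals.
mmu-miR-30a-5p: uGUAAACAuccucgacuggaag
mmu-miR-30a-3p: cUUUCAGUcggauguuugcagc
mmu-miR-30c-5p: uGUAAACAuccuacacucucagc
mmu-miR-30e-5p: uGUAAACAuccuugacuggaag
mmu-let-7a-5p: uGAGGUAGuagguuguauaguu
mmu-let-7g-5p: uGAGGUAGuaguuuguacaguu
The 5p arms of miR-30a, miR-30c and miR-30e share the seed GUAAACA, and both let-7 sequences share the different seed GAGGUAG. The labels do not say which arm of miR-30a the oligonucleotide matches. MicroRNA levels were not analysed here, and neither were target sites in the members' messages.

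Array medians, on the log2 scale, lay between 5.21 and 5.24, and the comparison covered 12633 genes. Genes were tested where their mean was at least 4.559, the level under which 40% of probe sets fall. Of 10 listed hepatoblast and liver epithelial markers, 9 had a probe set, and all 9 lay above this level. None of them passed the test in limma, a linear model fitted across all genes, with 0 of 9 at an unadjusted p under 0.05. The smallest p-values belonged to Afp (0.10), the epithelial cadherin gene Cdh1 (-0.04) and the liver transcription factor gene Foxa2 (0.03), given as log2 changes. Of the pluripotency markers, which mark the embryonic stem cells where Lin28a is also known, 5 of 7 lay under the filter: Nanog, Pou5f1, Sox2, Tdgf1 and Zfp42. The others, Utf1 (0.04) and Dppa5a (0.01), did not pass, with 0 at an unadjusted p under 0.05. Of 7 blood and macrophage markers 4 were tested and 1 rose, where 1.16% of all genes tested rose. It was the lysosomal gene Cd68, which rose by 0.39 (SE 0.072, adjusted p = 0.0176). That call failed when antisense replicate 3 (adjusted p = 0.0523) or antisense replicate 4 (adjusted p = 0.0551) was left out. Fcgr1 (-0.06) and Cx3cr1 (0.07) did not pass, and Ptprc, Adgre1 and Hba-a1 lay under the filter. The mean level over the 7 markers was 4.66 to 4.75 in antisense and 4.60 to 4.75 in scrambled arrays, and the part of Cd68 in the results was not tested. None of the 5 mesenchymal and 3 endothelial markers tested passed, and 0 of either had an unadjusted p under 0.05. The log2 changes were 0.06 for Acta2, -0.08 for Col1a2 and -0.02 for Dcn, and -0.10 for Flt1, 0.04 for Erg and -0.02 for Kdr.

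Hmga2, an embryonic chromatin protein gene, rose in the antisense samples. In RNA of a whole culture, more RNA per cell and more cells that express a gene cannot be told apart. Its brightest probe set, 1422851_at, was at 11.41, 11.40, 11.38, 11.38 and 11.42 (log2) in antisense replicates 1 to 5. In scrambled replicates 1 to 5 it was at 11.06, 11.11, 11.05, 11.09 and 10.99. Every antisense array lay above every scrambled array, with a gap of 0.26 between the groups, and the antisense arrays were nearly level with each other. The means were 11.40 ± 0.0175 (SD, n = 5) with the antisense and 11.06 ± 0.0477 (SD, n = 5) with the scrambled oligonucleotide. The log2 change was 0.34 (SE 0.036, 95% interval 0.26 to 0.42), a 1.26-fold difference, with a limma adjusted p of 0.000804 over the 12633 genes. As the groups did not overlap, the antisense array was bound to be higher in all 5 same-numbered pairs, here by 0.29 to 0.43. By unadjusted p Hmga2 ranked 6 among the genes tested, and by size it ranked 51 among the 146 genes that rose, which are 1.16% of those tested.

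The other Hmga2 probe sets were also higher with the antisense oligonucleotide. Probe set 1450781_at was at 11.11, 11.13, 11.07, 11.18 and 11.13 in antisense replicates 1 to 5 and at 10.59, 10.88, 10.81, 10.71 and 10.69 in scrambled replicates 1 to 5. Probe set 1450780_s_at was at 11.10, 11.09, 11.06, 11.03 and 10.96 against 10.69, 10.67, 10.70, 10.69 and 10.58. In neither did the groups overlap. The changes were 0.39 (SE 0.054, 95% interval 0.27 to 0.51) and 0.38 (SE 0.042, 95% interval 0.29 to 0.47). With each of the 27022 probe sets above the filter tested on its own, limma gave adjusted p-values of 0.00233 for 1422851_at, 0.00654 for 1450781_at and 0.00233 for 1450780_s_at. All 3 were designed from 1 sequence record of the Hmga2 message, so they are not independent readings of the gene.

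The fourth Hmga2 probe set, 1446196_at, comes from a different sequence record and was much dimmer on every array, at 5.58, 5.66, 5.88, 5.44 and 5.78 in antisense replicates 1 to 5. The scrambled arrays were at 5.37, 5.45, 5.30, 5.40 and 4.69. The groups overlapped by 0.01, between antisense replicate 4 and scrambled replicate 2. Its change was 0.43 (SE 0.13) and did not pass, with a limma adjusted p of 0.215 over all probe sets. The annotation also lists a probe set for Hmga2-ps1, a pseudogene, which is no member. It was at 6.03 ± 0.0875 (SD, n = 5) in antisense and 5.91 ± 0.118 (SD, n = 5) in scrambled arrays, and its change of 0.12 did not pass (limma adjusted p = 0.426).

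**Figure D1:**
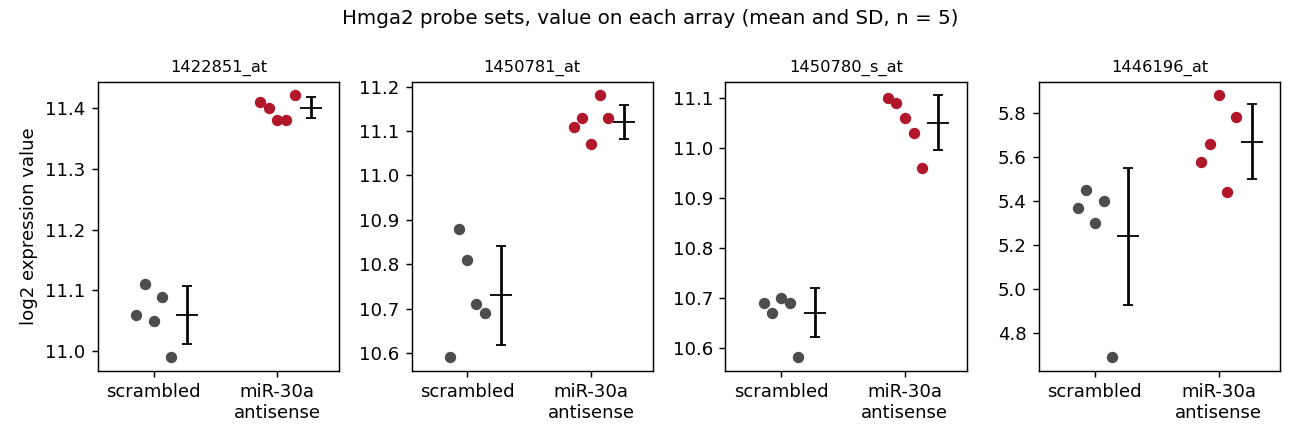
Log2 expression value (vertical axis, a separate range in each panel that does not start at 0) of the 4 Hmga2 probe sets on each array, with scrambled arrays in grey and miR-30a antisense arrays in red. Points are single arrays and bars are the mean and SD (n = 5); the groups are apart in the panels of 1422851_at, 1450781_at and 1450780_s_at and overlap by 0.01 in that of 1446196_at.

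The 250 bases before the RefSeq start of Hmga2 are shown because Hmga2 is the member that changed. The table held a promoter for 6 of the 7 genes, Igf2bp1 being the other. The Hmga2 bases lie on the minus strand of GRCm38.p6 at chr10:120476470-120476719, and capitals mark the longest unbroken run of C or T.
Hmga2 promoter: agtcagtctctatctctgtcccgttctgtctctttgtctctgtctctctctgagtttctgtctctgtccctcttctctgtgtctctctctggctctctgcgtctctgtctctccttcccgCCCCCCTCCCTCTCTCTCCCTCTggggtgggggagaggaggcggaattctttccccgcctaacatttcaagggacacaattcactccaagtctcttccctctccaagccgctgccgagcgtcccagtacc
The run is 23 bases long and spans positions 130 to 108 before the start. Of 32841 promoters of the same length in the table, 1.83% hold a run of C or T at least as long on the gene's strand, and 3.56% on either strand. C or T made up 70.8% of the Hmga2 window, a share reached by 0.414% of promoters. The Igf2bp3 window, whose gene did not pass the test, held a longer run of 35 bases, reached by 0.289% of promoters. C or T made up 68.0% of that window, a share reached by 0.737%. Counting either strand, the Lin28a window also held a longer run, of 24 bases, reached by 3.01% of promoters. This is a description of the letters, and its part in the levels was not tested.

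Igf2bp1, an RNA-binding protein that protects mRNAs such as that of Myc from decay, was measured well above the filter, and none of its 4 probe sets passed the test. Of these, 1 had an unadjusted p under 0.05, against 10.8% of all probe sets tested. The brightest, 1418761_at, was at 9.12, 9.42, 9.30, 9.36 and 9.46 in antisense replicates 1 to 5 and at 9.13, 9.42, 9.28, 9.28 and 9.29 in scrambled replicates 1 to 5. The groups overlapped over most of their range, and replicate 1 was the lowest array in both. The change was 0.05 (SE 0.067, 95% interval -0.10 to 0.19), with a limma adjusted p of 0.838.

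The Igf2bp1 probe set with an unadjusted p under 0.05 was 1455223_at, which was at 8.74, 8.70, 8.66, 8.73 and 8.68 in antisense replicates 1 to 5. In scrambled replicates 1 to 5 it was at 8.87, 8.80, 8.91, 8.90 and 8.84, so every antisense array lay below every scrambled one, with a gap of 0.06. The change was -0.16 (SE 0.039, 95% interval -0.25 to -0.08). Its unadjusted p was 0.0013, but over all probe sets the limma adjusted p was 0.0993, which did not pass. The remaining probe sets were at -0.05 for 1459825_x_at (adjusted p = 0.768) and -0.08 for 1449210_at (adjusted p = 0.671), and both overlapped between the groups. Probe sets 1418761_at and 1449210_at come from the same sequence record.

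Whether 1455223_at differs from the other 3 Igf2bp1 probe sets was tested within arrays, a comparison chosen after its values were seen. Against 1418761_at the changes differed by -0.21, and an exact two-sided permutation test over the arrays gave p = 0.0397. Against 1459825_x_at the difference was -0.11 (exact p = 0.0556) and against 1449210_at it was -0.08 (exact p = 0.294). After adjustment over 5 such comparisons the values were 0.0662, 0.0695 and 0.294. The 5 include the Hmga2 comparisons given below, whose small p-values could be foreseen and make this adjustment more lenient for Igf2bp1. These tests ignore the replicate numbers. Within same-numbered pairs the difference from 1418761_at lay below 0 in 5 of 5, from -0.33 to -0.08, and the differences from the other probe sets lay below 0 in 4 of 5 each. An exact test within the 5 pairs, added after the values were seen, can give no p under 0.0625. This exact test gave p = 0.0625, 0.125 and 0.312.

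The remaining comparisons of the 5 set Hmga2 against the Igf2bp genes, and were chosen with the call of Hmga2 known. They restate the rise of Hmga2 beside genes that did not pass, and are no separate evidence for that rise. The change of Hmga2 exceeded that of Igf2bp1 by 0.29 and that of Igf2bp3 by 0.31, each on the main probe sets. The log2 ratio within an array was higher in every antisense array than in any scrambled one for both. The exact two-sided permutation test gave p = 0.00794 for each, the smallest it can give with 5 arrays against 5, and 0.0198 after adjustment. With no overlap, the difference within pairs was bound to be above 0 in 5 of 5 for both. It ran from 0.21 to 0.36 and from 0.25 to 0.36. The exact test within pairs gave p = 0.0625 for each, the smallest it can give. With 5 pairs this test cannot pass whatever the differences, so it decides nothing here.

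Igf2bp3, an RNA-binding protein of the fetus and of many carcinomas, did not pass on any probe set. The brightest, 1422610_s_at, was at 9.59, 9.55, 9.64, 9.57 and 9.64 in antisense replicates 1 to 5 and at 9.59, 9.58, 9.56, 9.56 and 9.57 in scrambled replicates 1 to 5. The groups overlapped and the scrambled arrays varied little. The change was 0.03 (SE 0.034, 95% interval -0.05 to 0.10), with a limma adjusted p of 0.82. Over its 6 probe sets the changes ranged from -0.03 to 0.04, with 3 above 0, and limma adjusted p-values over all probe sets ran from 0.874 to 0.996. The widest 95% intervals were those of 1422611_s_at, from -0.30 to 0.27, and 1450687_at, from -0.24 to 0.32.

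In 3 Igf2bp3 probe sets the low arrays carried the same replicate numbers in both groups. Probe set 1422611_s_at was at 8.84, 8.89 and 8.86 in antisense replicates 1 to 3 and at 8.38 and 8.57 in antisense replicates 4 and 5. The scrambled arrays were at 8.97, 8.89 and 8.90 in replicates 1 to 3 and at 8.40 and 8.47 in replicates 4 and 5. Replicates 4 and 5 were the low arrays in both groups. In 1450687_at the same arrays were low, at 6.37 and 6.46 with the antisense and 6.04 and 6.31 with the scrambled oligonucleotide, against 6.54 to 6.78 in the other arrays. In 1453957_a_at replicates 1, 4 and 5 were the low ones, at 7.36, 7.37 and 7.35 with the antisense and 7.31, 7.26 and 7.35 with the scrambled oligonucleotide. Its replicates 2 and 3 were at 7.52 and 7.56 and at 7.71 and 7.55. The labels do not say what a replicate number marks. With the replicate number as a block in the fit, these probe sets still did not pass, with limma adjusted p-values of 0.91, 0.879 and 0.984.

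**Figure D2:**
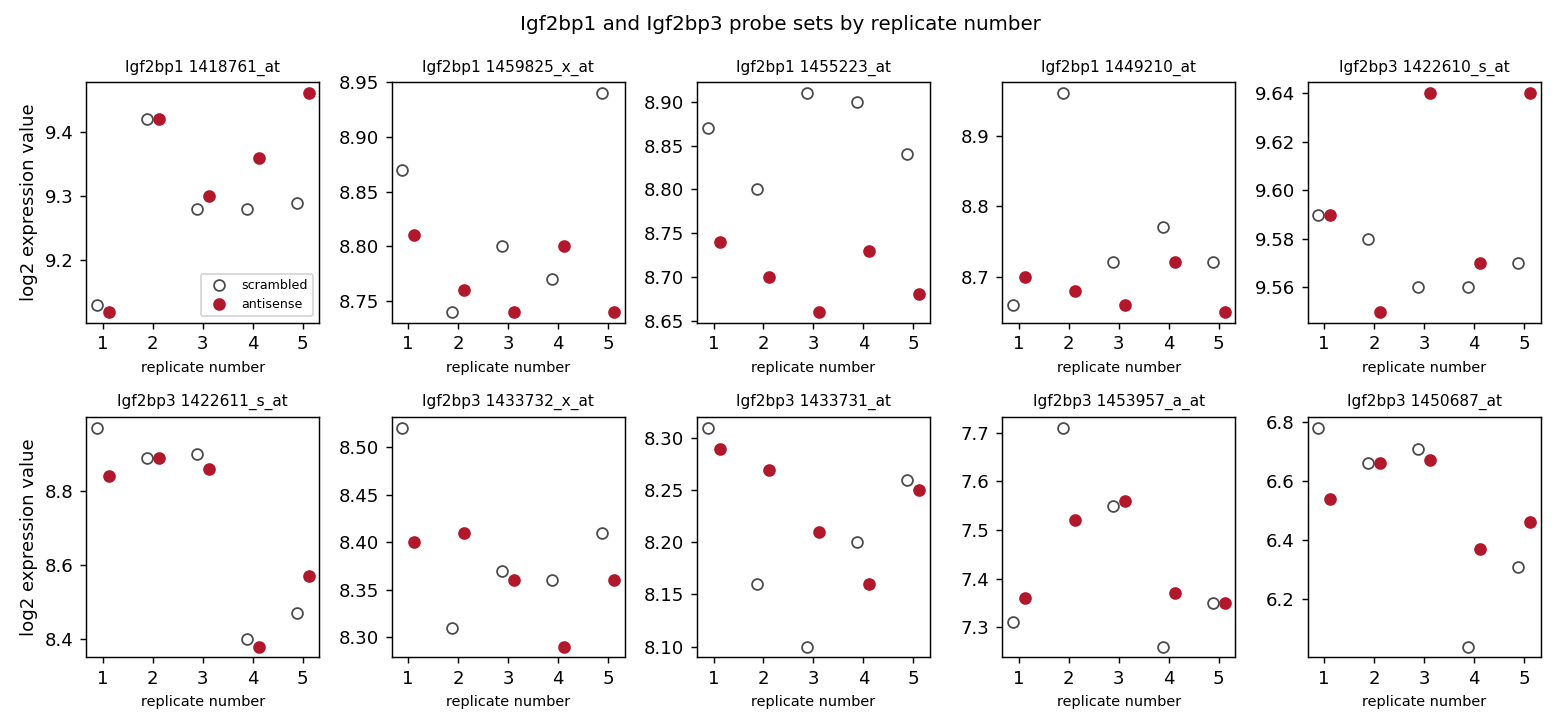
Log2 expression value (vertical axis, a separate range in each panel that does not start at 0) of the 4 Igf2bp1 and 6 Igf2bp3 probe sets against the replicate number, with scrambled arrays as open grey circles and antisense arrays as filled red circles, set slightly apart sideways. In 1422611_s_at and 1450687_at replicates 4 and 5 lie lowest in both groups, and in 1455223_at the antisense arrays lie below all scrambled ones.

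Lin28a and Lin28b, the blockers of let-7 maturation, lay under the filter on every probe set, and so had no test in the comparison of 12633 genes. Lin28a was at 3.94, 3.88, 4.09, 4.01 and 4.12 in antisense replicates 1 to 5 and at 4.10, 4.04, 3.95, 4.21 and 4.13 in scrambled replicates 1 to 5 on 1421749_at. Its other probe set, 1437752_at, had means of 2.81 ± 0.114 (SD, n = 5) and 2.92 ± 0.0329 (SD, n = 5). Lin28b was at 2.35, 2.33, 2.37, 2.33 and 2.35 against 2.46, 2.31, 2.33, 2.23 and 2.23 on 1430803_at. The groups overlapped on all 3, with differences of -0.08, -0.11 and 0.03. When the filter was left off, limma gave adjusted p-values of 0.722 for Lin28a and 0.872 for Lin28b on their brightest probe sets. Among the member probe sets, 1446196_at of Hmga2, with a mean of 5.46, lay nearest above the filter level of 4.559, and 1421749_at of Lin28a, with a mean of 4.05, nearest below it.

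Of the 3 members tested as genes 1 was called, against 1.53% of all genes tested, and with the replicate block 1 was called against 3.05%. Of the 14 member probe sets above the filter 3 were called, all of Hmga2, against 0.600% of all probe sets tested, and the same 3 passed with the replicate block, against 1.28%. The groups did not overlap in 4 of the 14, the 3 of Hmga2 and 1455223_at of Igf2bp1, against 3.05% of all probe sets. These counts pass over the 3 probe sets of Lin28a and Lin28b, and probe sets of 1 gene share their target. The call of Hmga2 was kept in all 10 fits with 1 array left out, with changes from 0.32 to 0.35.

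**Figure D3:**
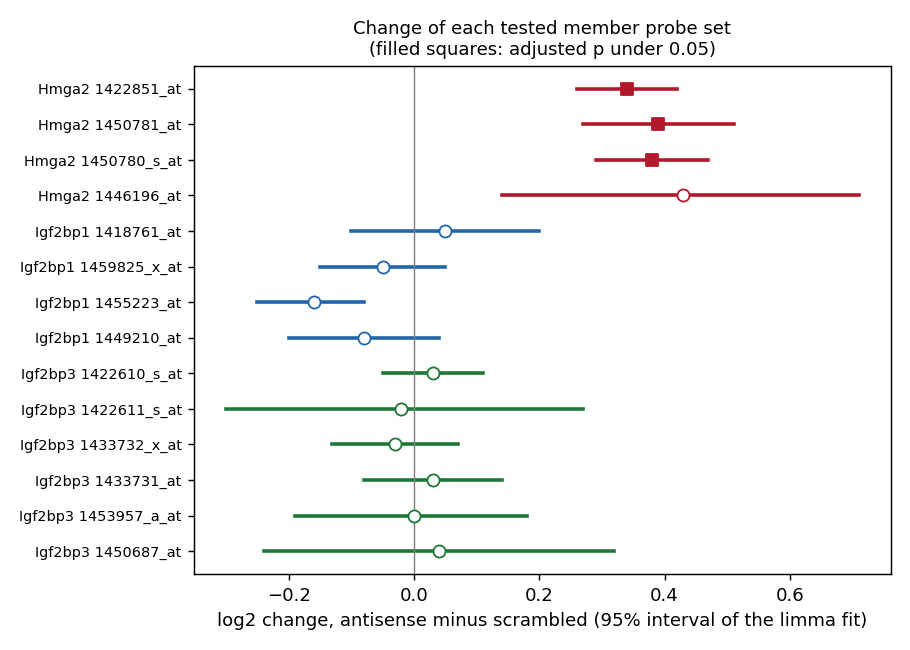
Log2 change, antisense minus scrambled (horizontal axis), of the 14 member probe sets above the filter, with 95% intervals of the limma fit over all probe sets. Filled squares mark an adjusted p under the threshold: 3 Hmga2 probe sets between 0.34 and 0.39; open circles, the Igf2bp1 and Igf2bp3 probe sets among them, did not pass.

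Genes that act with the members were taken from lists of reported partners and targets, chosen with earlier results of these data known. The let-7 processing, tailing and turnover genes, which include the uridyl transferases Tut4 and Tut7 that LIN28A recruits to pre-let-7, had 10 of 10 members tested and none passed, with 1 at an unadjusted p under 0.05. Their median log2 change was 0.02, against 0.008 over all genes tested, of which 12.9% had an unadjusted p under 0.05. The microprocessor subunit gene Dgcr8 was at 0.11 (adjusted p = 0.321), Tut4 at 0.10 (adjusted p = 0.477) and the export factor gene Xpo5 at 0.11 (adjusted p = 0.525). Other Dgcr8 probe sets were at -0.05 and -0.07, so they and the main one differ in sign.

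Of 25 reported let-7 targets other than the members, 20 were tested, 0 rose and 1 fell, with 2 at an unadjusted p under 0.05. Among all 12633 genes tested 47 fell, and 12.9% had an unadjusted p under 0.05. The list's median change was -0.01. The gene that fell was Plagl2, a zinc finger transcription factor gene, to 7.74 ± 0.085 (SD, n = 5) in antisense arrays. Its change was -0.26 (SE 0.048, limma adjusted p = 0.019). Without antisense replicate 4 the change was again -0.26, and its adjusted p was 0.0526. The mean of its probe sets gave -0.15 (adjusted p = 0.0699). The insulin signalling genes Irs2 (0.16, adjusted p = 0.269) and Insr (-0.14, adjusted p = 0.395) did not pass.

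The reported targets and effectors of HMGA proteins had 9 of 12 members tested and none passed, with 2 at an unadjusted p under 0.05 and a median change of 0.04. Such a p-value was reached by 12.9% of all genes tested. Snai1, a driver of epithelial-mesenchymal transition, was at 0.25 (SE 0.092, adjusted p = 0.252), the AP-1 subunit gene Junb at 0.19 (SE 0.081, adjusted p = 0.329) and the retinoblastoma gene Rb1 at 0.12 (adjusted p = 0.504). The mean of Snai1 was 4.77 in antisense and 4.52 in scrambled arrays, the latter under the filter level of 4.559. Snai1 thus passed the filter only through its antisense arrays, and it is among the 2 genes with an unadjusted p under 0.05. With the replicate block Junb rose (adjusted p = 0.0436). The other high mobility group genes had 6 of 9 members tested and none passed, with 1 at an unadjusted p under 0.05 and a median of 0.01. Hmgn3, a nucleosome-binding protein gene, was at 0.21 (adjusted p = 0.107), Hmgb2 at -0.10 (adjusted p = 0.404) and Hmgn1 at 0.04 (adjusted p = 0.642). Hmgn3 passed without antisense replicate 1 (adjusted p = 0.0306).

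Reported IGF2BP-bound transcripts held 1 gene that rose. Of 11 listed 8 were tested, with 2 at an unadjusted p under 0.05 and a median change of 0.10. Among all 12633 genes tested 1.16% rose, and 12.9% had an unadjusted p under 0.05. Cd44, the hyaluronan receptor gene, rose from 11.33 ± 0.022 (SD, n = 5) in scrambled to 11.54 ± 0.053 (SD, n = 5) in antisense arrays, by 0.21 (SE 0.037, limma adjusted p = 0.0165). Without antisense replicate 3 its adjusted p was 0.055. With each probe set tested on its own, the main Cd44 probe set passed (limma adjusted p = 0.0394). Its other probe sets above the filter, at 0.15 and 0.22, did not (limma adjusted p = 0.183 and 0.286). Ptgs2, the inducible cyclooxygenase gene, was at 0.49 (SE 0.13, adjusted p = 0.0851). In the fit with the replicate block it passed, at an adjusted p of 0.0291. The other Ptgs2 probe set was at 0.28 and did not pass (limma adjusted p = 0.481 over all probe sets). Mapk4 was at 0.20 (adjusted p = 0.391), with means of 4.77 in antisense and 4.57 in scrambled arrays, near the filter level of 4.559.

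The IGF2BP ribonucleoprotein partners, proteins found in the same mRNA particles, had 10 of 10 members tested and none passed, with 0 at an unadjusted p under 0.05 and a median of 0.01. Fmr1 was at -0.10 (adjusted p = 0.629), the poly(A)-binding protein gene Pabpc1 at 0.03 (adjusted p = 0.763) and Stau1 at 0.05 (adjusted p = 0.82). Other oncofetal liver genes had 7 of 9 members tested and none passed, with 0 at an unadjusted p under 0.05 and a median of 0.00. The fetal serum protein gene Afp was at 0.10 (adjusted p = 0.481), the fetal growth factor gene Igf2 at -0.09 (adjusted p = 0.625) and the stem cell factor gene Sall4 at 0.06 (adjusted p = 0.74). Over all genes tested, 12.9% had an unadjusted p under 0.05.

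**Figure D4:**
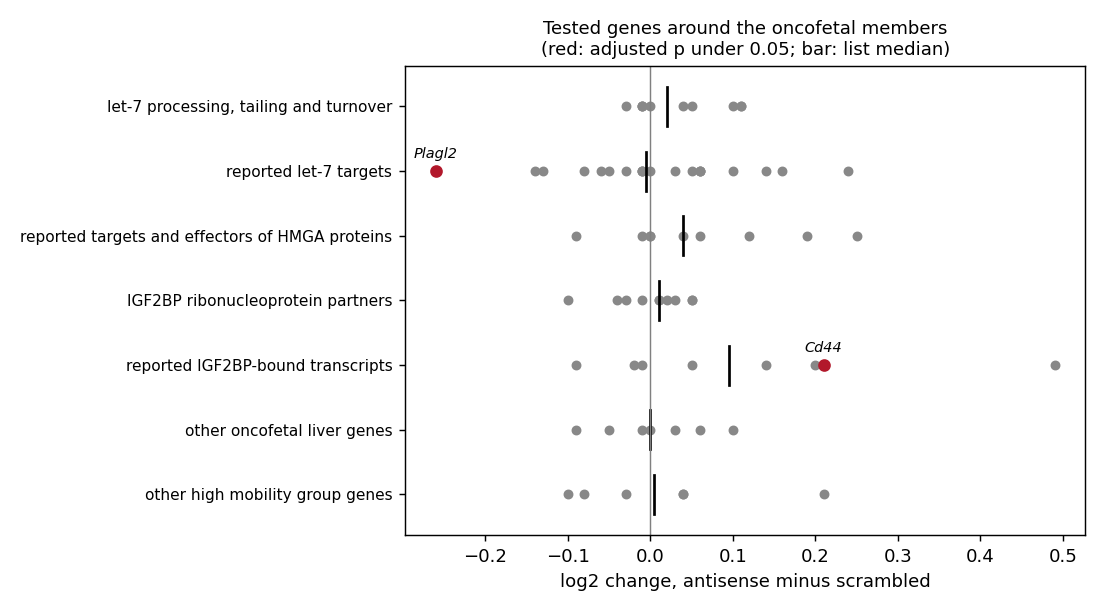
Log2 change, antisense minus scrambled (horizontal axis), of the tested genes in 7 lists around the members, 1 point a gene, with the list median as a black bar. Red points passed the test over all genes: Plagl2 at -0.26 and Cd44 at 0.21.

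The gene whose 10 array values followed those of Hmga2 most closely was Olfml2b (Pearson r = 0.976, Spearman rho = 0.903, n = 10 arrays), followed by the transporter gene Slc4a11 (r = 0.975, rho = 0.758). Without the 2 arrays farthest from the median of Hmga2, r was 0.97 and 0.965. Both rose in the antisense arrays, by 0.26 (limma adjusted p = 0.0037) and 0.64 (adjusted p = 3.73e-05), so the points fall into the same groups as those of Hmga2 and r describes mainly that difference. For Igf2bp1 the closest were Rgs2 (r = 0.948) and Pus3 (r = 0.94), with changes of 0.04 and 0.06. For Igf2bp3 they were Ubl5 (r = 0.931) and Cxcl11 (r = 0.888), where r without the 2 farthest arrays dropped to 0.344 and 0.623. Each is the top of 12633 genes ranked by this measure, and no test was made of it.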

How the data were processed

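The deposited table holds log2 expression values, as the authors left them, with a value for each probe set on each of 10 arrays. That the scale is log2 was read from the values, which reached 14.18. How probes were summarised, background-corrected and normalized is not given in the sources used here. Groups and replicate numbers come from the titles. Of 45101 probe sets, 64 of them array controls, the platform annotation pairs 34945 with 1 symbol and 932 with several, which were not used. A gene was represented by its brightest probe set (18193 genes), and those with a mean under the 40th percentile (4.559) were left out, leaving 12633.

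The fit used lmFit and eBayes of limma 3.58.1 (R 4.3.3), two-sided and without a block, and p-values were adjusted over all genes by the method of Benjamini and Hochberg, with 0.05 as the threshold. A second fit took each of 27022 probe sets above the filter on its own. Changes are antisense minus scrambled. With 5 arrays a group, their number limits the precision. Plots were made in Python 3.11.15 (matplotlib 3.10.9).

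Members and lists were chosen with earlier results of these data known. Named are every member probe set, the 3 genes of each list with the smallest p, and the 2 genes closest to each tested member by Pearson correlation. Markers under the filter are named too. Once group means were removed, arrays of the same number correlated at 0.172, 0.377, 0.112, 0.152 and 0.335 over the 12633 genes, and arrays of different number at -0.312 to 0.231. All 5 exceed 0.1. The main fit and the exact tests over all arrays still ignore the numbers, and a fit with the number as a block, or an exact test within pairs, stands beside them where it changes a call. Any pairing rests on the values, not the labels, and 3 of the 5 lie inside the range of the others. Alternatives were a replicate block, quantile or median scaling, no filter or a 60% filter, the mean of probe sets, every probe set on its own, an intensity trend, and each array left out in turn.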

Additional observations from a re-analysis of the deposited data

Results flagged for a closer look

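Among the 34 groups of 5 arrays, 2 for each member probe set, 2 held an array far from the others by Dixon's criterion, which chance meets in about 1 group in 20. Both were scrambled replicate 5 on Hmga2. It was at 10.58 on 1450780_s_at, where the next array was at 10.67, and at 4.69 on 1446196_at, where the next was at 5.30. Without scrambled replicate 5 the main Hmga2 probe set, 1422851_at, which was not flagged, still passed. The change of the flagged probe sets without that array was not examined.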

How the results depend on the processing

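Hmga2 kept its direction and its call under all 18 alternatives, with changes from 0.32 to 0.38 and limma adjusted p from 1.38e-05 to 0.00437 (0.00437 with the replicate block). The count of members called was 1 under each. Igf2bp1 did not pass under any alternative, and its sign turned with the mean of its probe sets, from 0.05 to -0.06 (adjusted p = 0.465). Igf2bp3 stayed between 0.01 and 0.04 and did not pass. Lin28a stayed between -0.11 and -0.04 and Lin28b between 0.01 and 0.07. The count of all genes called was 193, against 385 with the replicate block and 314 with an intensity trend, and ranged from 92 to 201 with 1 array left out (95, 92 and 123 without antisense replicate 3, 4 or 5, and 101 without scrambled replicate 3). The replicate block changed no call among the members; among the named genes of the lists it added Ptgs2 and Junb. The alternatives for the named list genes were chosen after seeing the data. With the mean of probe sets the sign turned for Dgcr8 (-0.02), Utf1 (-0.01) and Fmr1 (0.00, from -0.10). With 1 array left out it turned for Dcn (-0.07 to 0.03), Dppa5a (-0.02 to 0.03), Erg (-0.02 to 0.14) and Kdr (-0.06 to 0.02), none of which passed. Cd68 missed the threshold without antisense replicate 3 or 4 (adjusted p = 0.0523 and 0.0551), and Ptgs2 passed with an intensity trend (adjusted p = 0.0367). The cause of these shifts was not tested. Values near background limit what can be said of the Lin28 genes.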
